A study of Mus musculus with 4 samples.

Results

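The p38 MAP kinase cascade was followed through 10 genes in islet cells of the mouse, measured on 4 Agilent arrays with 1 color. The members were Map3k5, Map2k3, Map2k6, Mapk11, Mapk12, Mapk13, Mapk14, Mapkapk2, Mapkapk3 and Mapkapk5, taken as every gene probe whose accession maps to one of these symbols. They had 16 of the 56605 different probes on the array, and 10 of the 22917 genes that could be named. The islet cells came from 60-week-old C57BL/6 mice labeled as male, 4 littermates in all, and were dispersed after collagenase digestion and handpicking. Cells received either a scrambled peptide (replicates 1 and 2) or MOTS-c, a small peptide encoded in mitochondrial DNA (replicates 2 and 3), each at 10 μM for 24 h outside the animal. The labels do not tie a mouse to an array, so the spread within a group may be partly technical. Dispersed islet cells hold several endocrine cell types, and fewer cells of a type cannot be told apart from less RNA per cell.

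The p38 cascade relays stress and cytokine signals by phosphorylation. A MAP kinase kinase kinase such as ASK1 (Map3k5) phosphorylates the dual-specificity kinases MKK3 (Map2k3) and MKK6 (Map2k6), these activate the p38 kinases, and active p38 phosphorylates transcription factors and the MAPKAP kinases. In islets, the pathway is known for its activity under oxidative and inflammatory stress. The arrays measured RNA and not phosphorylation, so they give the amounts of message for the cascade and not its activity.

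The promoters of 3 members are shown because Map2k6 and the brighter of the 2 Mapkapk3 probes had the lowest log2 differences of the member probes, while Map2k3, which encodes the other p38-activating kinase of the set, did not share that difference. Each is the first listed start of the gene in RefSeq, from 250 bases before to 50 after it, on assembly GRCm38.p6. The Map2k3 window lies at chr11:60931804-60932103 on the plus strand, the Map2k6 window at chr11:110398852-110399151 on the plus strand and the Mapkapk3 window at chr9:107289828-107290127 on the minus strand. Capitals mark matches on either strand to the GC box (GGGCGG), the CCAAT box (CCAAT), the TATA box (TATAAA) and the cAMP response element (TGACGTCA). They also mark an AP-1-like pattern (TGANTCA) and the core of the antioxidant response element (TGACNNNGC). The AP-1-like pattern allows any middle base and is looser than the AP-1 site itself.
Map2k3: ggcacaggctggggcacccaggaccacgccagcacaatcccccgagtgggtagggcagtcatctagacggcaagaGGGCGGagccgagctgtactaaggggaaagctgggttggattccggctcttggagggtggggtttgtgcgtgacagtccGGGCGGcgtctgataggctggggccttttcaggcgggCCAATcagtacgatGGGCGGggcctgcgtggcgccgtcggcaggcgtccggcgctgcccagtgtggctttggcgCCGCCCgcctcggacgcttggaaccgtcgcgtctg
Map2k6: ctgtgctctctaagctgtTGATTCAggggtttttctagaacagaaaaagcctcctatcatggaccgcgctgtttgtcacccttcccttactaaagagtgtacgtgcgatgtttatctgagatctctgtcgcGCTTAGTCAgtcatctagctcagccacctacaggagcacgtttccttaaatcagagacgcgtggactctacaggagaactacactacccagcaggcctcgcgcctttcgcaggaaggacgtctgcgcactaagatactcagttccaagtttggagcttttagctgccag
Mapkapk3: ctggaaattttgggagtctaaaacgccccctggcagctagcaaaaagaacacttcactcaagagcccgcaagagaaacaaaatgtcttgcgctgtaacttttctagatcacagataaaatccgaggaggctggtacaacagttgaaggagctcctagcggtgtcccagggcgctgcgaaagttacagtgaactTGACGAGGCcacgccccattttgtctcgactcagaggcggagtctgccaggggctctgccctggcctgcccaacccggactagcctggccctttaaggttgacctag

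The Map2k3 window held 28 CG dinucleotides, 4 GC boxes and 1 CCAAT box. The Map2k6 window held 14 CG dinucleotides, 1 antioxidant response element core and no GC box. It also held 1 match to the AP-1-like pattern, with T as the middle base. The Mapkapk3 window held 12 CG dinucleotides and 1 antioxidant response element core. Over all 32851 promoter windows of this length the median was 7 CG dinucleotides. A GC box was found in 35.7% of them, a CCAAT box in 37.4%, a TATA box in 13.6% and the cAMP response element in 1.79%. The AP-1-like pattern was found in 7.81% and the antioxidant core in 12.4%. The 10 members had 14 windows, since Map2k6 has 3 listed starts and Mapk14 and Mapkapk3 have 2 each. Of these 14, 8 held a GC box and 7 held the antioxidant core, and the number of CG dinucleotides ran from 4 to 47. The core was also in windows of Mapkapk2, Mapkapk5 and Mapk14, whose brightest probes differed by only 0.10, 0.13 and -0.15. It was absent from the third Map2k6 start. The second Map2k6 start held 1 GC box and 6 CG dinucleotides, and the third held 1 TATA box and 4 CG dinucleotides. Which start gives rise to the message read by the Map2k6 probe was not tested. These are matches of letters only, and no binding was measured.

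The members also share positions in the genome. Mapk12 (chromosome 15, 89130584 to 89141577) and Mapk11 (89142482 to 89149606) lie 904 bases apart. Mapk14 (chromosome 17, 28691342 to 28748405) and Mapk13 (28769286 to 28778704) lie 20880 bases apart. The 4 p38 kinase genes thus form a pair of neighbors on each of 2 chromosomes. Map2k3 and Map2k6 are both on chromosome 11, but far from each other.

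All 16 probes passed the filter of a signal well above background on at least 2 of 4 arrays, and 15 of them were well above background on all 4. Of the genes, 6 had 2 probes and 4 had 1. Values below are log2 intensities after quantile normalization, and differences are MOTS-c minus scrambled. The genes were chosen by their place in the cascade, with their log2 differences in this same comparison known, so those differences are given as a description. Of the 16 probes, 0 reached an adjusted p under 0.05 in limma, as did 0 of all 35087 probes tested (0%), and 2 had an unadjusted p under 0.05, against 7.85% of all probes. The same 2 also passed 1.5-fold, against 3.53% of all probes, and both were lower with MOTS-c. The groups did not overlap for 3 probes that were higher with MOTS-c, where the share among all probes was 19.4%, and for 6 that were lower, where it was 18.6%. The median difference was -0.13 over the 16 probes and 0.01 over all probes. With 2 arrays against 2, the lowest two-sided p of an exact permutation test is 0.333, so none was run on single genes.

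**Figure D1:**
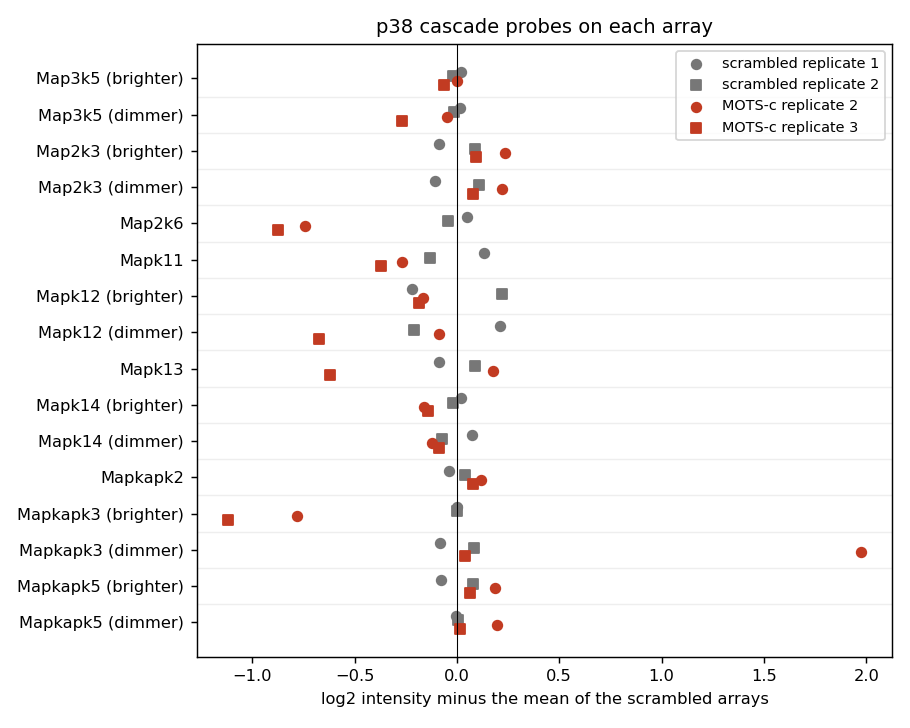
Log2 intensity of each of the 16 member probes on each array, minus the mean of the scrambled arrays for that probe. Gray points are scrambled arrays and red points MOTS-c arrays, and both red points of Map2k6 and of the brighter Mapkapk3 probe lie below -0.7 while 1 point of the dimmer Mapkapk3 probe lies near 2.

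At the top of the cascade, Map3k5 encodes ASK1, a kinase that is released from thioredoxin under oxidative stress. Its brighter probe read 9.37 and 9.32 with scrambled peptide and 9.35 and 9.28 with MOTS-c. The groups overlapped, and the difference of -0.03 ± 0.12 (SE) was smaller than its error. It was 0.05 after normexp background correction. The dimmer probe read 8.31 and 8.28 with scrambled peptide and 8.25 and 8.02 with MOTS-c, a difference of -0.16 ± 0.14 (SE). Here both MOTS-c arrays were below both scrambled arrays, with MOTS-c replicate 3 the lowest. Both Map3k5 probes thus differed by little more than 1 standard error or less.

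The MAP kinase kinases gave unlike values. Map2k6 encodes MKK6, which phosphorylates the p38 kinases, and has a single probe. It read 10.42 and 10.32 with scrambled peptide and 9.63 and 9.49 with MOTS-c. Each MOTS-c array was well below both scrambled arrays, and the gap between the groups was several times the gap within either. The means were 10.37 ± 0.07 (SD, n = 2) and 9.56 ± 0.09 (SD, n = 2), which is 1.75-fold lower with MOTS-c. The log2 difference was -0.81 ± 0.13 (SE), with an unadjusted limma p of 0.0020 and an adjusted p of 0.474. Over the alternatives it ran from -0.87 to -0.74. Its signal was between 23.1 and 41.8 times the local background, far from the floor.

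Map2k3 encodes MKK3, the closest relative of MKK6 in the cascade. Its brighter probe read 12.07 and 12.24 with scrambled peptide and 12.39 and 12.25 with MOTS-c. The groups did not overlap, but scrambled replicate 2 and MOTS-c replicate 3 were nearly equal, and the difference was 0.17 ± 0.14 (SE). The dimmer probe read 9.66 and 9.87 with scrambled peptide and 9.98 and 9.84 with MOTS-c, a difference of 0.15 ± 0.14 (SE). Its groups overlapped. The 2 probes gave the same picture of a small positive difference, with scrambled replicate 1 the lowest array and MOTS-c replicate 2 the highest on both. On the brighter probe the difference was 0.08 without scrambled replicate 1, 0.25 without scrambled replicate 2, 0.10 without MOTS-c replicate 2 and 0.08 after normexp background correction.

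Set against each other within an array, the log2 value of Map2k6 minus that of the brighter Map2k3 probe was -1.65 and -1.92 with scrambled peptide and -2.77 and -2.76 with MOTS-c. The shift between the groups was -0.97, and from -1.11 to -0.81 over the alternatives. The shift shows unequal change of the 2 signals and does not rank the amounts of the 2 messages, since different probes differ in brightness. This contrast was chosen after the values had been seen.

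The p38 kinases themselves were measured by 6 probes, and all 6 differences were below 0. Among all probes 47.1% were below 0. Mapk14 encodes p38α, the widely expressed form. Its brighter probe read 13.65 and 13.62 with scrambled peptide and 13.47 and 13.49 with MOTS-c. The MOTS-c arrays were the lower pair, with little spread within either group, and the difference was -0.15 ± 0.12 (SE). Its dimmer probe read 6.40 and 6.25 with scrambled peptide and 6.20 and 6.23 with MOTS-c, a difference of -0.11 ± 0.13 (SE). The groups did not overlap on this probe either, although scrambled replicate 2 was close to both MOTS-c arrays. The methods' t-test gave the brighter Mapk14 probe an unadjusted p of 0.017, as it did for 6.59% of all probes at 0.05, while limma, which draws the spread of a probe toward that of the others, gave 0.25.

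Mapk11 encodes p38β. It read 7.51 and 7.25 with scrambled peptide and 7.11 and 7.01 with MOTS-c. The groups did not overlap, and the difference was -0.32 ± 0.15 (SE), with a range over the alternatives from -0.45 to -0.19. Mapk12 encodes p38γ, a form known from muscle. Its brighter probe read 6.53 and 6.97 with scrambled peptide and 6.58 and 6.57 with MOTS-c. The groups overlapped because scrambled replicate 1 was as low as the MOTS-c arrays, and the difference of -0.18 ± 0.19 (SE) became 0.04 without scrambled replicate 2. The dimmer Mapk12 probe, the 1 member probe well above background on only 3 arrays, read 4.44 and 4.02 with scrambled peptide and 4.14 and 3.56 with MOTS-c. Its difference was -0.38 ± 0.26 (SE) and its groups overlapped. At 1.19 to 1.40 times the local background it stood close to the floor, and after normexp background correction the difference was -0.04.

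Mapk13 encodes p38δ. It read 6.05 and 6.22 with scrambled peptide and 6.31 and 5.51 with MOTS-c. The MOTS-c arrays lay on either side of the scrambled ones, so the difference of -0.22 ± 0.29 (SE) rested on MOTS-c replicate 3. Without that array it was 0.18, and without MOTS-c replicate 2 it was -0.62, when limma gave an unadjusted p under 0.05. Across the family, both MOTS-c arrays were below both scrambled arrays for 3 of 6 probes, those of Mapk11 and Mapk14, against 18.6% of all probes. The remaining 3, for Mapk12 and Mapk13, overlapped.

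**Figure D2:**
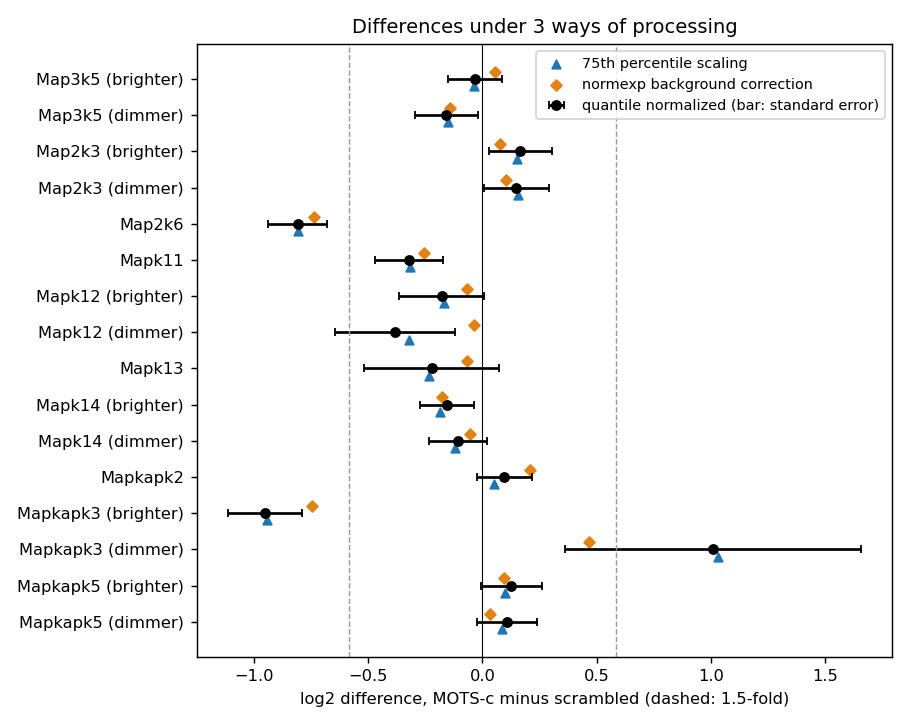
Log2 difference, MOTS-c minus scrambled, of each member probe under quantile normalization with its standard error (black), under 75th percentile scaling (blue) and after normexp background correction (orange). Dashed lines mark 1.5-fold, past which Map2k6 and the brighter Mapkapk3 probe lie under all 3 and the dimmer Mapkapk3 probe only under the first 2.

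The MAPKAP kinases act below p38. Mapkapk2 encodes MK2, which phosphorylates RNA-binding proteins such as tristetraprolin and the small heat shock protein Hspb1. It read 13.88 and 13.96 with scrambled peptide and 14.04 and 14.00 with MOTS-c. Both MOTS-c arrays were slightly higher, by 0.10 ± 0.12 (SE). The difference ran from 0.05 with 75th percentile scaling to 0.21 after normexp background correction.

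Mapkapk3 encodes MK3, a close relative of MK2. Its brighter probe read 8.70 on both scrambled arrays, and 7.91 and 7.58 with MOTS-c. The scrambled arrays agreed almost exactly and both MOTS-c arrays were lower, with means of 8.70 ± 0.0011 (SD, n = 2) and 7.75 ± 0.24 (SD, n = 2). This was 1.93-fold lower with MOTS-c, a log2 difference of -0.95 ± 0.16 (SE) with an unadjusted limma p of 0.0025 and an adjusted p of 0.474. The signal was at most 17.2 times the local background with scrambled peptide, and 9.33 and 8.56 times with MOTS-c.

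The second Mapkapk3 probe, assigned to the same RefSeq transcript, went the other way on 1 array. It read 4.50 and 4.66 with scrambled peptide and 6.55 and 4.62 with MOTS-c. MOTS-c replicate 2 alone was high, and MOTS-c replicate 3 lay between the scrambled arrays. The difference was 1.01 ± 0.65 (SE), and the groups overlapped. It was 0.04 without MOTS-c replicate 2, 1.97 without MOTS-c replicate 3, and 0.47 after normexp background correction. Its signal was 3.29 times the local background on MOTS-c replicate 2 and at most 1.74 times on the other 3 arrays, so those 3 values were close to the floor. The mean over both probes was 0.03, and the value given for Mapkapk3 therefore depended on which probe was read. Which of the 2 probes follows the transcript was not tested.

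Mapkapk5 encodes MK5, also called PRAK. Its brighter probe read 13.17 and 13.32 with scrambled peptide and 13.43 and 13.31 with MOTS-c, a difference of 0.13 ± 0.13 (SE) with overlap between the groups. It was 0.05 without scrambled replicate 1, 0.20 without scrambled replicate 2 and 0.07 without MOTS-c replicate 2. The dimmer probe read 12.40 and 12.41 with scrambled peptide and 12.60 and 12.42 with MOTS-c, a difference of 0.11 ± 0.13 (SE). Its MOTS-c arrays were both higher, though MOTS-c replicate 3 by very little. Of the 5 MAPKAP kinase probes, 4 were thus above 0 and the brighter Mapkapk3 probe was below.

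The probes of a gene shared a direction for 5 of the 6 members with 2 probes. On the whole array, among genes with 2 probes tested, this held for 72.2% of 4461 genes. The gap between the differences of the 2 probes was 0.02 for Map2k3, 0.02 for Mapkapk5, 0.05 for Mapk14, 0.13 for Map3k5 and 0.20 for Mapk12. The median gap over all such genes was 0.11. For Mapkapk3 the gap was 1.96, larger than in 99.8% of them. Map2k6, the other member past 1.5-fold, has no second probe by which it could be compared.

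**Figure D3:**
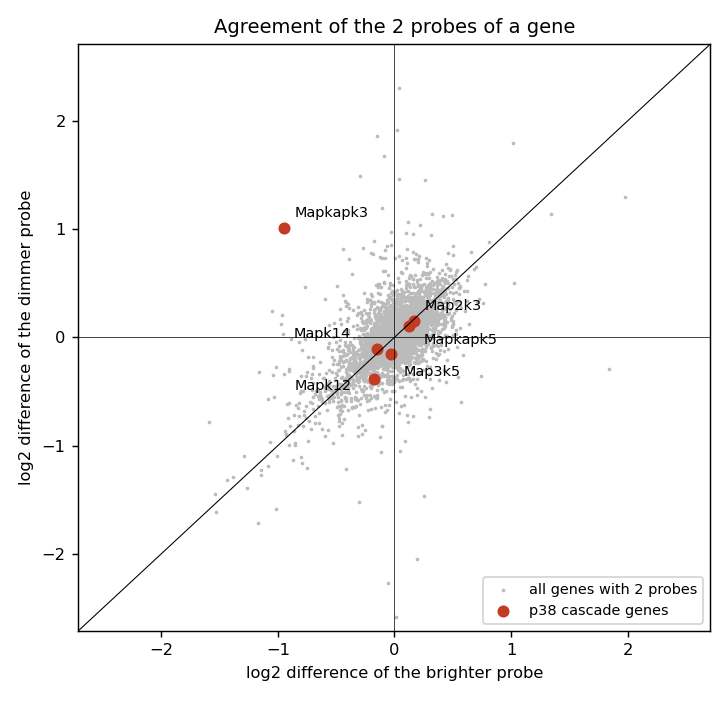
Log2 difference of the dimmer probe against that of the brighter probe for the 4461 genes with 2 probes tested (gray) and the 6 such p38 cascade genes (red), with the line of equal differences. Mapkapk3 stands at -0.95 and 1.01, away from the line, and the other 5 lie near it and near 0.

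Among all probes sorted into 4 equal parts by mean signal, the share at an unadjusted p under 0.05 with 1.5-fold was 7.73% in the dimmest and 0.627% in the brightest. The 16 member probes were spread as 3, 5, 3 and 5 over these parts. Map2k6 lay in the third part, where the share was 2.28%, and the brighter Mapkapk3 probe in the second, where it was 3.49%.

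The array patterns nearest to Map2k6, by Euclidean distance of the 4 centered log2 values, were those of Emp2 at 0.03, Dbn1 at 0.04 and Cd300e at 0.06. Emp2 encodes an epithelial membrane protein and Dbn1 the actin-binding protein drebrin. Among the nearest to the brighter Mapkapk3 probe were Acss1 at 0.04 and Sox8 at 0.08. Acss1 encodes a mitochondrial acetyl-CoA synthetase and Sox8 a transcription factor. The search ran over the 32868 probes well above background on all 4 arrays, and with 4 values a pattern no relation is read from it.

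The remaining genes of the pathway were taken from a list of 37, of which 36 had a probe that passed the filter and Mef2c, a transcription factor phosphorylated by p38, had none. Of their 63 probes, 0 reached an adjusted p under 0.05 in limma, 5 had an unadjusted p under 0.05, where the share of all probes was 7.85%, and 1 also passed 1.5-fold, where it was 3.53%. The groups did not overlap for 18 probes higher with MOTS-c, against 19.4% of all probes, and for 6 lower ones, against 18.6%. The median difference was 0.08. The 1 probe was that of Map3k6, which encodes ASK2, the partner of ASK1. It read 6.82 and 7.12 with scrambled peptide and 6.43 and 6.26 with MOTS-c. The scrambled arrays were the higher pair, and the difference was -0.63 ± 0.16 (SE), with an adjusted limma p of 0.534. After normexp background correction the difference was -0.34, below 1.5-fold. The other 4 at an unadjusted p under 0.05 were probes of Dusp10, Mknk2, the stress-induced adaptor Gadd45b, at 0.42, and the transcription factor Atf2, at 0.37 on a dim probe. That Atf2 probe was at 0.02 after normexp background correction, and the 2 brighter Atf2 probes were at -0.09 and 0.16. Gadd45b and Atf2 were named after their values were seen.

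Among the upstream kinases, Map3k4, the kinase that GADD45 proteins bind, Taok1 and Map3k7, which encodes TAK1, had the brightest signals. The brightest probes of these genes differed by 0.03 for Map3k4, -0.16 for Taok1 and 0.23 for Map3k7. The groups overlapped for Map3k4 and Taok1 and did not for Map3k7. The median over the 19 upstream probes was 0.09. Of the adaptors, the TAK1-binding protein Tab2 differed by 0.06, Gadd45g by -0.19 and Traf2 by 0.02 on their brightest probes. The median over the 12 adaptor probes was 0.08.

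The phosphatases include the dual-specificity enzymes that switch p38 off, and 7 of their 9 probes had a difference below 0, against 47.1% of all probes. In the other groups, 5 of 19 upstream, 2 of 12 adaptor, 4 of 7 kinase target and 4 of 16 substrate probes were below 0. The 9 phosphatase probes belong to 6 genes. On the brightest probes the difference was -0.16 for Dusp8, -0.004 for Dusp1 and -0.42 for Dusp10. It was -0.28 for Dusp16, 0.13 for Ppm1a and 0.08 for Ppm1d, which were named after their values were seen. The dimmer probes of Dusp8, Ppm1a and Ppm1d were at -0.11, -0.05 and -0.12, so the probes of Ppm1a and of Ppm1d did not share a direction. The probe of Dusp10, which encodes MKP-5, read 10.34 and 10.60 with scrambled peptide and 10.05 and 10.06 with MOTS-c, and was among the 5 at an unadjusted p under 0.05. The other p38 targets are kinases, of which Mknk2, which phosphorylates the initiation factor eIF4E, read 14.16 and 14.17 with scrambled peptide and 14.55 and 14.49 with MOTS-c. The groups were apart, with a difference of 0.36 ± 0.12 (SE) that is below 1.5-fold. Mknk1 differed by -0.04 and Rps6ka4, which encodes MSK2, by 0.06.

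Among the substrates with the brightest signals, Elk1 differed by 0.08 on its brighter probe, Hspb1 by 0.19 and Ddit3, which encodes CHOP, by -0.14. The brighter Elk1 probe read 17.84 on average and the dimmer Elk1 probe 6.93, where the difference was 0.15 and the groups overlapped. Which Elk1 probe follows the transcript was not tested. Zfp36, which encodes tristetraprolin, a target of MK2, read 7.87 and 8.14 with scrambled peptide and 8.21 and 8.0 with MOTS-c. The groups overlapped for Zfp36 and for Ddit3, and did not for Hspb1 or the brighter Elk1 probe. The median over the 16 substrate probes was 0.15. Zfp36 was named after its values were seen.

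**Figure D4:**
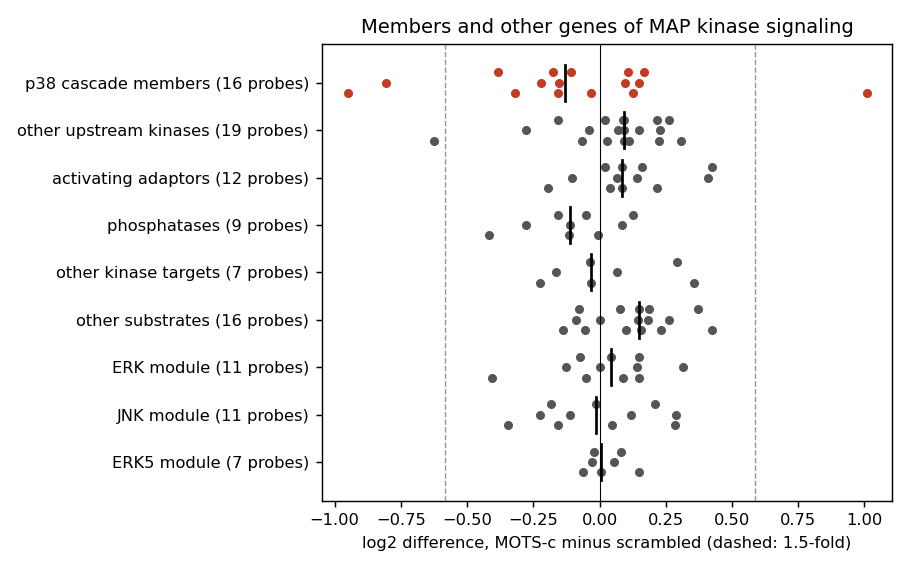
Log2 difference, MOTS-c minus scrambled, of every tested probe of the 10 members (red), of 5 groups of other p38 pathway genes and of the ERK, JNK and ERK5 modules (gray), with the median of each group as a black bar and 1.5-fold as dashed lines. Outside the members, only the Map3k6 probe lies past a dashed line.

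The sister MAP kinase modules were measured in the same way with 29 probes of 15 genes. None of the 29 passed 1.5-fold at an unadjusted p under 0.05, 0 reached an adjusted p under 0.05 in limma, and 1 had an unadjusted p under 0.05, against 7.85% of all probes. That probe was of Mapk3, which encodes ERK1, and read 13.50 and 13.52 with scrambled peptide and 13.11 and 13.10 with MOTS-c. The values with MOTS-c were the lower ones, with a difference of -0.41 ± 0.12 (SE). The median difference was 0.04 in the ERK module, -0.01 in the JNK module and 0.01 in the ERK5 module. Map2k2, an ERK-activating kinase, differed by 0.15. Of the JNK module, Mapk10 differed by -0.11, Map2k7 by -0.16 and Mapk9 by -0.01, and of the ERK5 module Mapk7 by 0.08, Map2k5 by -0.03 and Map3k2 by 0.15.

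The labeled cell type was checked with 38 markers. Beta cell markers were well above background on all 4 arrays for 6 of 7 genes, alpha markers for 3 of 4 and delta markers for 3 of 3. All 3 ductal markers were above background on no array, as were 1 of 2 markers of PP cells, 3 of 6 acinar, 2 of 3 endothelial, 3 of 4 mesenchymal, 1 of 3 macrophage and 1 of 3 lymphocyte markers. The summed beta signal was 862000 to 888000 with scrambled peptide and 856000 to 858000 with MOTS-c, the alpha sum 57700 to 61200 and 61200 to 62200, the delta sum 153000 to 223000 and 151000 to 153000, and the macrophage sum 2700 to 4320 and 2680 to 3480. The mesenchymal sum was 66.3 to 97.2 and 38.4 to 57.6. Ins1 and Ins2, which make up much of the beta sum, read 18.11 and 18.57 on average, near the highest probe mean of 18.62. Quantile normalization sets values at that end largely by rank, so near-equal beta sums say little about beta cell content. The delta and alpha sums largely follow 1 bright probe each, Sst at 17.3 and Gcg at 15.6 on average. Sst read 17.72 on scrambled replicate 2 and 17.16 to 17.17 on the other arrays, so the higher delta sum rested on that array. Of the 26 marker probes tested, 3 had an unadjusted p under 0.05 and 1.5-fold, against 3.53% of all probes, namely Slc2a2, the glucose transporter of beta cells, at -1.33, the fibroblast marker Pdgfra at -1.05 and the alpha cell factor Irx2 at 0.68. After normexp background correction these were -0.40, -0.40 and 0.15. The 3 probes read only 4.58, 5.54 and 4.77 on average, and that of Slc2a2 was well above background on only 3 arrays. They lay in the dimmest of the 4 parts by mean signal, where the share passing this rule was 7.73%. The part of cell type content in the values of Map2k6 and Mapkapk3 was not tested. The probes of 4 Y-linked genes passed the background limit in 0 of 28 readings and that of Xist in 4 of 4, which goes against the male label of both groups alike.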

How the data were processed

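The authors labeled islet RNA with Cy3, hybridized it to 4 arrays on 1 slide and deposited the processed intensity of each spot from Agilent Feature Extraction, with the background of each array already removed and no normalization across arrays. A second deposited table holds the same intensity values rounded. Groups and replicate numbers came from the labels.

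Control spots (3671 per array) and outlier spots (96 to 131) were left out, intensities were taken to log2, spots of a probe were averaged, and the 35087 probes that 2 or more of the 4 arrays read well above background were quantile normalized. This filter stands in for Flag A of the methods, which they do not define. Spots well above background made up 61.6% to 65.0% of gene spots and 0 were saturated. The number of arrays limits the precision. limma 3.58.1 (R 4.3.3) compared MOTS-c with scrambled, with 2 residual degrees of freedom plus 2.64 from the other probes, and Benjamini-Hochberg adjustment over all probes. The annotation of the array design uses another build than GRCm38.p6, whose RefSeq table named 33024 probes and gave all gene and promoter positions. The script was tested on simulated data.

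Genes named were all members, pathway and sister module genes with a probe at an unadjusted p under 0.05 and 1.5-fold, otherwise up to 3 with the highest signal per subgroup, and the 3 nearest patterns of Map2k6 and Mapkapk3. Other exceptions are given beside their values. Not every gene that meets the rule is reported here. Members and lists were chosen with earlier results of these data known. The alternatives were 75th percentile scaling, normexp on median signals (offset 50), the rounded values, no filter or a strict one, limma with a trend, the methods' t-test, the mean over probes and leaving out each array.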

Additional observations from a re-analysis of the deposited data

How the results depend on the processing

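No paired analysis was run, because the labels do not tie a mouse to an array. The count of all probes at an unadjusted p under 0.05 with 1.5-fold, 1239, became 458 with the methods' t-test and 414 after normexp background correction, and 1391 to 3299 with 1 array left out, the highest without MOTS-c replicate 2. The 2 member probes, Map2k6 and the brighter Mapkapk3 probe, passed this rule under every alternative run on all probes, and without MOTS-c replicate 2 there were 4, with the dimmer Mapk12 probe and Mapk13 added. Leave-one-out counts ran from 2 to 4, and without MOTS-c replicate 3 the third was the dimmer Mapkapk3 probe, which was higher. The 1 pathway probe became 0 with the methods' t-test and 0 after normexp background correction, and 0 to 2 with 1 array left out (0 without scrambled replicate 2, 2 without scrambled replicate 1 or MOTS-c replicate 2). The mean over both probes turned Mapkapk3 to 0.028. Of 96 alternative values of single members 91 kept their sign, the exceptions being 2 of Map3k5 and 1 each of Mapk12, Mapk13 and Mapkapk3. The p38 kinase probes below 0 numbered 5 in place of 6 without MOTS-c replicate 3, without scrambled replicate 2 and under the strict filter, which removed 1 dim Mapk12 probe. The members whose probes share a direction numbered 4 in place of 5 in those 3 settings and after normexp background correction. Under the strict filter this was because Mapk12 had only 1 probe left, and not because a direction changed. The median over member probes ran from -0.12 to -0.02 with 1 array left out and was -0.05 after normexp background correction. A setting with 1 array in a group takes that array to vary like the other group. Values within 2 times the local background, as on the dimmer Mapk12 and Mapkapk3 probes, limit what can be read from them. The causes of these shifts were not tested.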
